A study of Mus musculus with 16 samples.

Results

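The transcription factors that steer T cells toward effector function or exhaustion were followed as 10 genes, Tbx21, Eomes, Prdm1, Id2, Zeb2, Bhlhe40, Irf4, Tox, Tox2 and Rora, taken by gene name from the 55450 genes of the count table. All 10 were found once, and all passed the filter on low counts in every comparison. Stranded total RNA had been sequenced from CD4+ and CD8+ tumor-infiltrating lymphocytes (TILs). The tumors grew s.c. from injected B16F10 cells, which derive from a mouse melanoma, and the hosts were WT mice (C57BL/6J) and Sirt2-/- mice (B6.129-Sirt2tm1.1Fwa/J), which lack the deacetylase SIRT2 in every tissue of the host and not only in T cells. Mice of the study were 7 to 8 weeks old and of both sexes, and the sex behind each library is not given. The tumor cells were the same line in both genotypes. Each of the 4 groups of cell type and genotype had 4 libraries, 16 in all. TILs were enriched with beads against CD3ε, and how CD4+ and CD8+ cells were then parted is not given in the sources used here. Nothing in the labels says which CD4+ and CD8+ libraries came from the same tumor or whether animals were pooled, so p-values measure the spread between these libraries. The study asked how loss of SIRT2 alters what happens downstream of the T cell receptor (TCR) in tumors.

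A T cell that meets antigen switches on a small set of transcription factors that set what it becomes. T-bet (Tbx21) and eomesodermin (Eomes) are T-box factors that activate cytotoxic and cytokine genes. Blimp-1 (Prdm1), ID2 and ZEB2 favor terminal effector cells over memory cells, and IRF4 and BHLHE40 follow TCR signaling. TOX is the factor most closely tied to the exhausted state that CD8+ TILs take on under persistent antigen, TOX2 is its relative, and RORα (Rora) is a nuclear receptor of helper and innate lymphoid cells.

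The members lie on 8 chromosomes (GRCm38), and 2 pairs share one, Zeb2 and Tox2 on chromosome 2 and Eomes and Rora on chromosome 9. Eomes spans chr9:118478212-118486132 and Rora chr9:68653786-69388246, both on the forward strand. Tbx21 spans chr11:97098071-97115331 and Prdm1 chr10:44437177-44528501, both on the reverse strand. Genes annotated on the opposite strand overlap Eomes, Zeb2, Bhlhe40, Tox and Rora, and their counts reached at most 3.15% of the member's own counts in any library (Zeb2os on Zeb2). The 250 bases before the RefSeq start are shown for these 4 genes (RefSeq, GRCm38.p6). Eomes and Tbx21 were higher in CD8+ TILs and Prdm1 and Rora higher in CD4+ TILs of WT mice. Id2 and Irf4, which also differed, are not shown. The windows shown are written in the direction of transcription, and none reaches into an annotated UTR. The windows are Eomes chr9:118477939-118478188, Tbx21 chr11:97115332-97115581, Prdm1 chr10:44458749-44458998 and Rora chr9:68653536-68653785, and that of Prdm1 lies inside the GENCODE span of the gene, whose start is farther upstream. Capitals mark motif matches on either strand.
Eomes: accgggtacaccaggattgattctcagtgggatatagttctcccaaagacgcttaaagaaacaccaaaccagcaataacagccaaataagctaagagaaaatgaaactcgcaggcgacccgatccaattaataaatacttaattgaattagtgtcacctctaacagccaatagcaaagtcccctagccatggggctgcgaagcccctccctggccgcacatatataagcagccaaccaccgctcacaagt
Tbx21: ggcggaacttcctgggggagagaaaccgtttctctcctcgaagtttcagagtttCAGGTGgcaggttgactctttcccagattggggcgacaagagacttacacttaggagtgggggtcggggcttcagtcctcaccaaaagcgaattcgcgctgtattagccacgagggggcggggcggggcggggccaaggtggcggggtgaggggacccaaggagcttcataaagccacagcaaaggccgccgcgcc
Prdm1: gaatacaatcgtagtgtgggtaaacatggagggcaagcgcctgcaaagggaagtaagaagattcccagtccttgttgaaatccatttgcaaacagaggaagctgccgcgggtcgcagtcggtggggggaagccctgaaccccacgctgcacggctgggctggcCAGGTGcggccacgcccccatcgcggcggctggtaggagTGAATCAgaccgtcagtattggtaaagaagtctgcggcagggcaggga
Rora: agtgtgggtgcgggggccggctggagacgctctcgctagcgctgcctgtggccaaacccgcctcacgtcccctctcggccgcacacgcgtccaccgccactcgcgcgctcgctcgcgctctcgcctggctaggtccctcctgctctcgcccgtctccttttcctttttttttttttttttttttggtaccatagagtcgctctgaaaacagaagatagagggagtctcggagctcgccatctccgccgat

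Of 6 motifs searched on both strands, the E-box of ZEB and E proteins (CACCTG, written CAGGTG on the other strand) began 196 bases before the start of Tbx21 and 87 bases before that of Prdm1. An AP-1 site (TGANTCA) began 48 bases before the start of Prdm1. The windows of Eomes and Rora held none of the 6. Over all 32851 RefSeq windows of this length, 17.2% held CACCTG and 6.75% TGANTCA, and the 4 motifs without a match in any member window were the T-box motif TCACACC (3.33%), the BHLHE40 E-box CACGTG (6.02%), the ROR motif AGGTCA (14.0%) and the RUNX motif TGTGGT (14.0%). RefSeq windows were found for 8 of the 10 members, with 15 windows in all, of which 3 held CACCTG and 2 TGANTCA. Among those not shown, AP-1 sites began 189 and 132 bases before a start of Zeb2. An E-box of ZEB and E proteins began 47 bases before a start of Tox2. The windows of Id2 and Irf4 held no match. A match is a stretch of letters, not a bound site.

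Counts on genes ranged from 28000949 to 62407851 per library. In 13 libraries 17730 to 22138 genes were detected, against 8169 in CD4+ Sirt2-/- replicate 4, 12587 in CD4+ WT replicate 1 and 14411 in CD8+ WT replicate 1, and the fold changes of the members are given with and without these 3 libraries. Sirt2 itself lay at 33.4 to 75.6 normalized CPM (counts scaled to library size with TMM factors) in the 8 WT libraries and at 0 to 12.2 in the 8 Sirt2-/- libraries. Cd4, Zbtb7b and Cd40lg summed to 436 to 720 CPM in CD4+ libraries and to at most 12.3 in CD8+ libraries. Cd8a and Cd8b1 summed to 1461 to 2046 CPM in CD8+ libraries. In CD4+ libraries they summed to 14.0 to 24.9 CPM in WT and to 22.2 to 74.9 CPM in Sirt2-/- mice.

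Between CD8+ and CD4+ TILs of WT mice, 3 members were higher and 3 lower in CD8+ TILs. Eomes, Id2 and Tbx21 were higher, by 11.2-fold, 2.35-fold and 1.95-fold, and Rora, Prdm1 and Irf4 were lower, by 6.44-fold, 2.71-fold and 2.56-fold. Zeb2, Bhlhe40, Tox and Tox2 did not pass the test (edgeR's quasi-likelihood test, two-sided, Benjamini-Hochberg adjusted p under 0.05 over 14892 genes). The same test called 11.9% of all genes, 4.89% higher and 6.96% lower in CD8+ TILs. In 7 of the 10 members all 4 libraries of one cell type lay above all 4 of the other, against 22.7% of all genes. Without CD4+ WT replicate 1 and CD8+ WT replicate 1, 8 members and 4394 of 15694 genes were called. The log2 fold changes were then 3.54 for Eomes, 1.28 for Id2, 1.27 for Tbx21, -2.67 for Rora, -1.56 for Prdm1, -1.24 for Irf4, -2.68 for Tox2 and -0.36 for Bhlhe40, all called, and 0.49 for Tox and 0.38 for Zeb2, which were not. In bulk RNA, fewer cells that express a gene and less of its RNA per cell cannot be told apart.

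In Sirt2-/- mice 4 members differed between the cell types: Eomes (12.0-fold) and Id2 (2.73-fold) were higher in CD8+ TILs, and Rora (5.95-fold) and Irf4 (1.9995-fold) lower. All genes were called at 2.24% (0.918% higher, 1.32% lower, of 15787 genes), and the groups did not overlap for 6 members and for 22.2% of all genes. Without CD4+ Sirt2-/- replicate 4, the library with 8169 genes detected, 7 members and 4250 of 16703 genes were called, with Tbx21, Prdm1 and Tox2 added. The log2 fold changes were then 3.43 for Eomes, 1.35 for Id2, -2.64 for Rora and -0.89 for Irf4, and 0.67 for Tox, 0.40 for Zeb2 and -0.079 for Bhlhe40, which were not called. Leaving out CD4+ replicate 1 or 2, or CD8+ replicate 1, 3 or 4, left 2 members called, Eomes and Rora. In these fits 111 to 234 genes were called, of 16220 to 16478 tested. All 10 members had the same sign in the WT and the Sirt2-/- comparison, and the difference between them was called for none (the test of that difference is given with the genotypes).

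**Figure D1:**
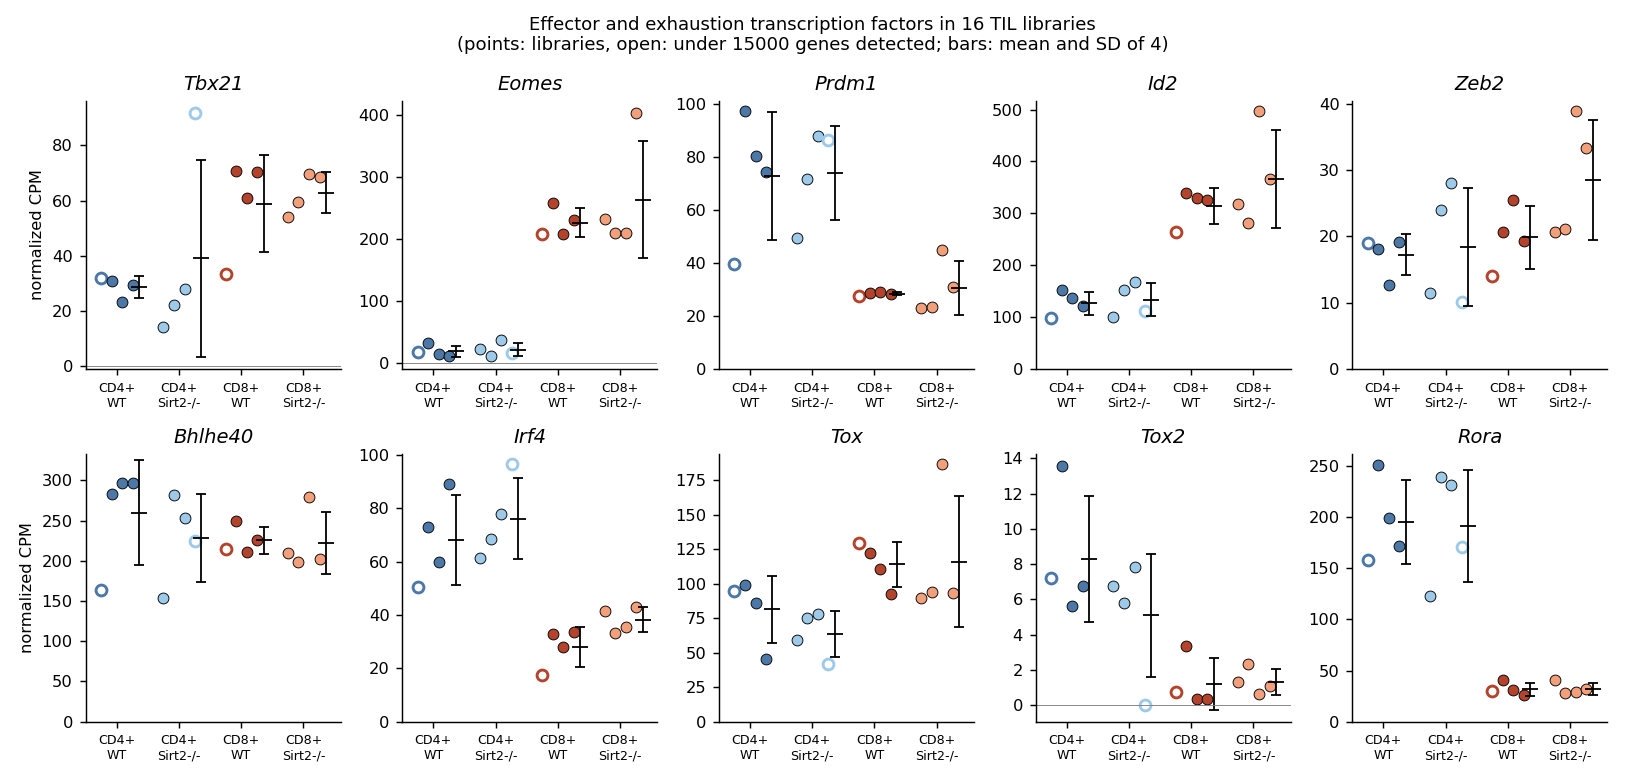
Normalized CPM (linear axes that include 0) of the 10 transcription factors in each of the 16 libraries, by cell type and genotype. Points are libraries, open points the 3 libraries with under 15000 genes detected, and bars the mean and SD of 4. Eomes lies at 208 CPM or more in all CD8+ libraries and at 37.3 CPM or less in all CD4+ libraries, and Rora shows the opposite order.

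Eomes, which drives cytotoxic genes and memory in CD8+ T cells, separated the cell types most. It was measured at 17.4, 32.4, 15.3 and 12.1 CPM in the 4 CD4+ WT libraries and at 208, 259, 209 and 231 CPM in the CD8+ WT libraries. In Sirt2-/- TILs it was at 22.4, 12.0, 37.3 and 15.7 CPM in CD4+ and at 232, 210.4, 209 and 404 CPM in CD8+ libraries. The lowest CD8+ library was thus above the highest CD4+ library in both genotypes, and CD8+ Sirt2-/- replicate 4 stood above the others of its group. CD8+ over CD4+ TILs gave a log2 fold change of 3.48 ± 0.28 (SE) in WT (adjusted p = 3.90e-05) and 3.58 ± 0.41 in Sirt2-/- mice (adjusted p = 0.00484).

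Tbx21, which encodes T-bet, the factor of type 1 helper and cytotoxic cells, differed less. It was at 31.8, 30.7, 23.0 and 29.5 CPM in CD4+ WT libraries and at 33.3, 70.5, 61.0 and 70.3 CPM in CD8+ WT libraries. The groups did not overlap, but the lowest CD8+ library, replicate 1 with 14411 genes detected, lay just above the highest CD4+ library. This difference was a log2 fold change of 0.96 ± 0.24 (adjusted p = 0.0235). Over its alternatives the adjusted p ran from 8.63e-06 to 0.242. Among them, it passed 0.05 when either or both of the WT libraries with few genes detected were left out, and missed it without any one of the other 6 libraries (0.0510 to 0.0866) and with all 16 libraries in 1 model (0.242).

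In Sirt2-/- mice Tbx21 was at 14.0, 22.2, 27.9 and 91.7 CPM in CD4+ libraries and at 53.9, 59.5, 69.5 and 68.5 CPM in CD8+ libraries. CD4+ replicate 4, at 91.7 CPM, was above every CD8+ library, while the other 3 were below all of them. With it the log2 fold change was 0.69 ± 0.53 (adjusted p = 0.811), and without it 1.52 (adjusted p = 0.000727). Its 91.7 CPM is 5124 counts, which are reads and not molecules, in a library with only 8169 genes detected.

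The balance of the T-box factors within a library differed by cell type. Per kilobase of exon (RPKM), Eomes was 1.80 to 3.74 times Tbx21 in the 8 CD8+ libraries and 0.102 to 0.954 times in the 8 CD4+ libraries. Eomes was thus the higher of the pair in every CD8+ library and Tbx21 in every CD4+ library.

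Id2, an inhibitor of E proteins that is needed for effector cells to survive, was per kilobase of exon the most abundant member in CD8+ TILs. It was measured at 98.6, 151, 136 and 121 CPM in CD4+ WT and at 264, 339, 329 and 325 CPM in CD8+ WT libraries. The Sirt2-/- libraries held it at 100.4, 153, 167 and 112 CPM in CD4+ and at 318, 282, 497 and 367 CPM in CD8+ libraries. No CD8+ library of either genotype fell below a CD4+ library. On the log2 scale Id2 was higher by 1.23 ± 0.16 in WT (adjusted p = 0.000593) and 1.45 ± 0.24 in Sirt2-/- mice (adjusted p = 0.0197). That call in Sirt2-/- mice was lost without CD4+ replicate 1 or 2 or CD8+ replicate 1, 3 or 4, with adjusted p from 0.0517 to 0.0730.

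Prdm1, the gene of the repressor Blimp-1, ran the other way. It was at 39.5, 97.4, 80.2 and 74.4 CPM in CD4+ WT libraries, against 27.6, 28.7, 29.0 and 28.4 CPM in CD8+ WT libraries, the tightest group of any member (SD 0.591 CPM around a mean of 28.4). The CD4+ WT library with 12587 genes detected, at 39.5 CPM, was the lowest of its group and still above all CD8+ WT libraries. Among Sirt2-/- libraries it was at 49.5, 71.9, 87.9 and 86.6 CPM in CD4+ and at 23.1, 23.4, 44.9 and 30.8 CPM in CD8+ libraries, again without overlap. In WT the log2 fold change was -1.44 ± 0.25 (adjusted p = 0.00371). In Sirt2-/- mice it was -1.28 ± 0.30 and missed the threshold (adjusted p = 0.0742), while without CD4+ Sirt2-/- replicate 4 it was -1.22 (adjusted p = 0.0105).

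Id2 and Prdm1, both tied to effector cells, therefore diverged between the cell types. Per kilobase, Id2 was 21.9 to 31.4 times Prdm1 in CD8+ libraries and 2.96 to 5.71 times in CD4+ libraries.

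Zeb2, a zinc finger repressor that acts with T-bet in terminal effector CD8+ cells, was low in all groups, at 0.866 to 1.43 RPKM on average. It was measured at 19.0, 18.1, 12.7 and 19.2 CPM in CD4+ WT, 14.0, 20.6, 25.5 and 19.4 CPM in CD8+ WT, 11.4, 23.9, 28.1 and 10.2 CPM in CD4+ Sirt2-/- and 20.7, 21.2, 39.0 and 33.4 CPM in CD8+ Sirt2-/- libraries. The cell types overlapped in both genotypes. The log2 fold change of CD8+ over CD4+ TILs was 0.14 ± 0.26 in WT (95% interval -0.44 to 0.71) and 0.62 ± 0.50 in Sirt2-/- mice (-0.52 to 1.77).

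**Figure D2:**
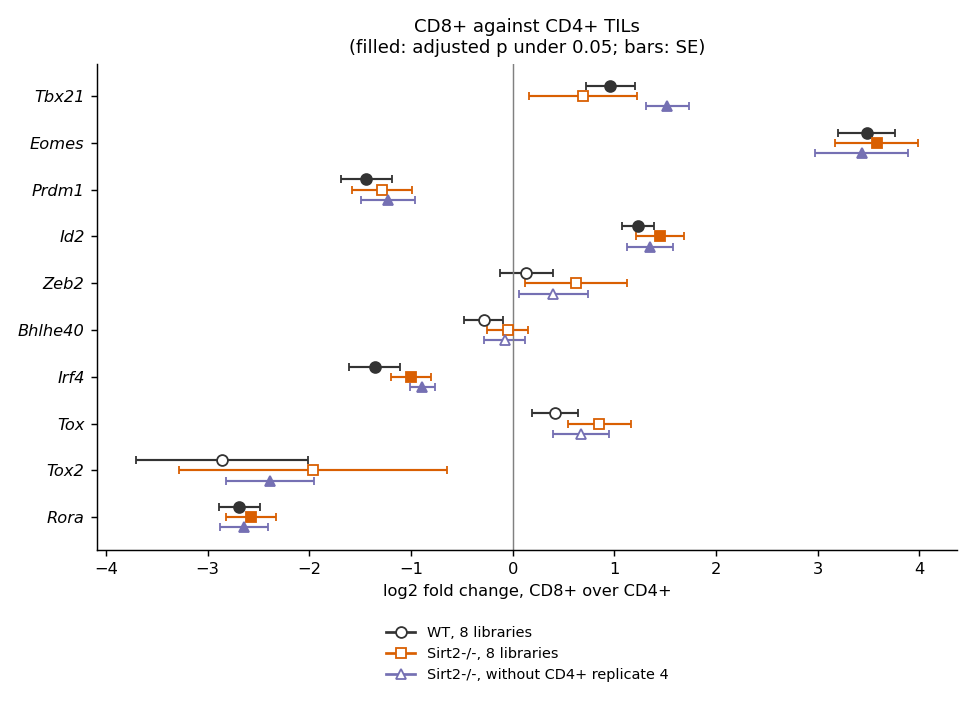
Log2 fold change of CD8+ over CD4+ TILs (x axis) for each of the 10 transcription factors, with SE as bars and filled symbols where the adjusted p was under 0.05. Circles are WT, squares Sirt2-/- with all 8 libraries and triangles Sirt2-/- without CD4+ replicate 4. Eomes stands at 3.48 and Rora at -2.69 in WT, and Tbx21 in Sirt2-/- mice moves from 0.69 to 1.52 when that library is left out.

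Irf4, which is induced in proportion to TCR signal strength, was lower in CD8+ TILs. It was at 50.4, 73.0, 60.0 and 89.3 CPM in CD4+ WT and at 17.5, 32.8, 28.1 and 33.7 CPM in CD8+ WT libraries. Sirt2-/- TILs had 61.4, 68.5, 77.7 and 96.5 CPM in CD4+ and 41.3, 33.1, 35.7 and 43.1 CPM in CD8+ libraries. The cell types did not overlap in either genotype. The log2 fold change was -1.36 ± 0.25 in WT (adjusted p = 0.00515) and -0.9996 ± 0.20 in Sirt2-/- mice (adjusted p = 0.0418). Among other alternatives, the Sirt2-/- call was lost without any one of the 7 libraries other than CD4+ replicate 4 (adjusted p 0.0573 to 0.174) and without the filter on low counts (0.180), while the log2 fold change stayed between -1.10 and -0.88.

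Bhlhe40, a repressor that supports cytokine output of T cells, was among the 3 most abundant members per kilobase in every group, and no difference was called. It was measured at 163, 283, 297 and 297 CPM in CD4+ WT, 215, 249.7, 211 and 225 CPM in CD8+ WT, 154, 282, 253 and 225 CPM in CD4+ Sirt2-/- and 210.2, 198, 279.6 and 203 CPM in CD8+ Sirt2-/- libraries. In WT TILs only CD4+ replicate 1 lay below the CD8+ libraries, and the other 3 CD4+ libraries lay above them. With it the log2 fold change was -0.29 ± 0.19 (adjusted p = 0.415), and without it -0.38 (adjusted p = 0.0304). The Sirt2-/- value was -0.05 ± 0.21 (95% interval -0.52 to 0.42).

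Tox was somewhat above its CD4+ level in most CD8+ libraries, with no call in either genotype. It was measured at 94.5, 99.1, 86.2 and 45.3 CPM in CD4+ WT and at 129.7, 123, 110.5 and 92.8 CPM in CD8+ WT libraries, where CD8+ replicate 4 fell among the CD4+ values. In Sirt2-/- TILs it was at 59.4, 75.3, 78.3 and 42.1 CPM in CD4+ and at 89.3, 94.2, 187 and 93.4 CPM in CD8+ libraries, where the groups did not overlap. CD8+ over CD4+, the log2 fold change was 0.42 ± 0.23 in WT (adjusted p = 0.296, 95% interval -0.08 to 0.91) and 0.85 ± 0.31 in Sirt2-/- mice (adjusted p = 0.281, 0.14 to 1.56).

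Tox2, the close relative of Tox, showed the opposite order. It was at 7.22, 13.6, 5.64 and 6.78 CPM in CD4+ WT and at 0.756, 3.36, 0.353 and 0.339 CPM in CD8+ WT libraries, the last value resting on 12 counts. The groups did not overlap, yet the log2 fold change of -2.86 ± 0.84 narrowly missed the threshold (adjusted p = 0.0502). Among the alternatives that called it were DESeq2 (0.00233), limma-voom (0.00173), no filter on low counts (0.0370), and the fits without CD4+ WT replicate 1 (0.0319), without CD8+ WT replicate 2 (0.0129) and without both libraries with few genes detected (0.0260), within a range of 0.00173 to 0.240 over all alternatives.

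In Sirt2-/- TILs Tox2 was at 6.78, 5.81, 7.81 and 0.0179 CPM in CD4+ and at 1.30, 2.34, 0.608 and 1.07 CPM in CD8+ libraries. CD4+ replicate 4, with 1 count, was below every CD8+ library, and the other 3 CD4+ libraries were above all of them. The log2 fold change was -1.97 ± 1.32 with that library (adjusted p = 0.738) and -2.39 without it (adjusted p = 0.00246).

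Rora was the member most clearly higher in CD4+ TILs. It was measured at 158, 251, 199 and 172 CPM in CD4+ WT and at 29.6, 40.8, 30.7 and 26.3 CPM in CD8+ WT libraries. In Sirt2-/- TILs it was at 123, 239, 231 and 170.2 CPM in CD4+ and at 40.7, 27.6, 29.2 and 31.9 CPM in CD8+ libraries. The lowest CD4+ library was far above the highest CD8+ library in both genotypes. The log2 fold change was -2.69 ± 0.20 in WT (adjusted p = 2.10e-05) and -2.57 ± 0.25 in Sirt2-/- mice (adjusted p = 0.00254), and both calls held in every alternative run, as did those of Eomes.

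**Figure D3:**
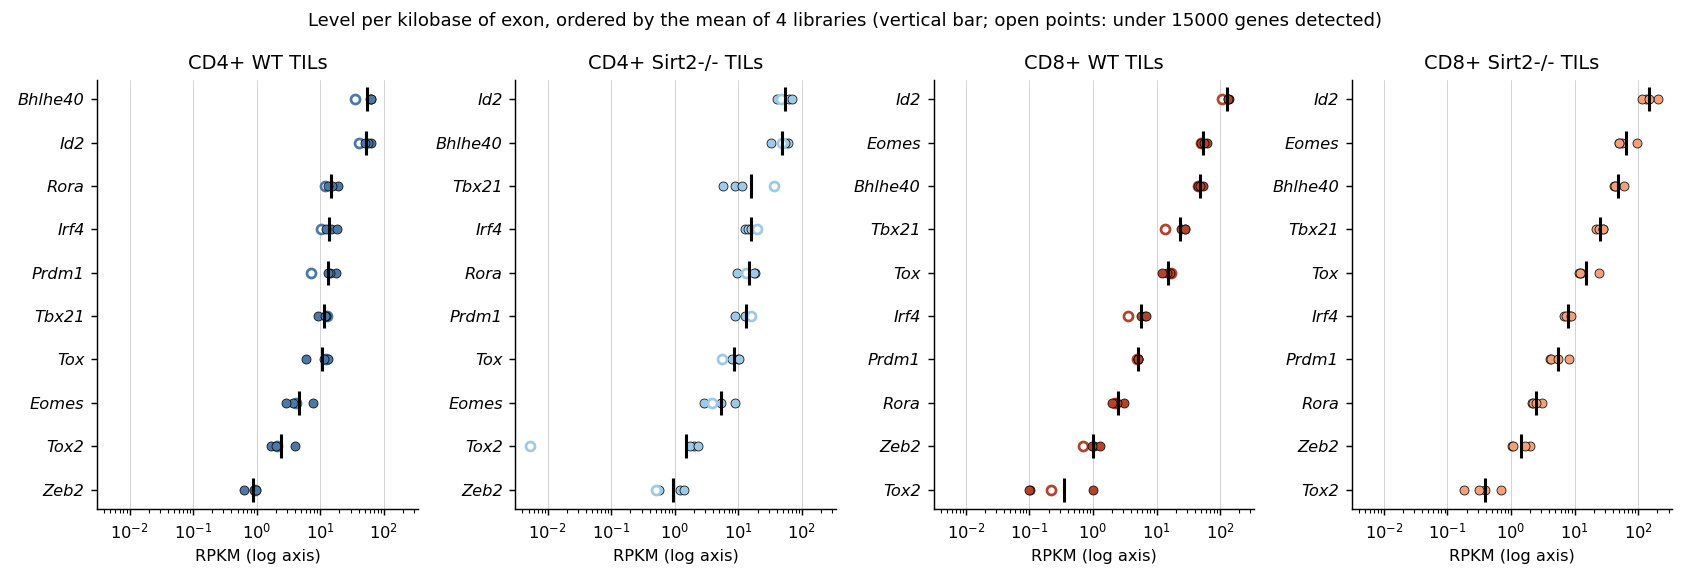
RPKM of each transcription factor on a log axis, in order of the mean (vertical bar) of the 4 libraries of each group. Open points are the 3 libraries with under 15000 genes detected. Id2, Eomes and Bhlhe40 lead in both CD8+ groups, and Id2 and Bhlhe40 in both CD4+ groups, where Eomes is eighth of the 10.

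Compared per kilobase of exon, the members covered a wide range in every group. The length is that of all annotated exons of a gene merged, from 2.44 kb (Id2) to 19.9 kb (Zeb2), and the orders depend on it. In CD8+ TILs of both genotypes the order by mean RPKM was Id2, Eomes, Bhlhe40, Tbx21, Tox, Irf4, Prdm1, Rora, Zeb2 and Tox2, from 129 ± 14.0 RPKM (SD, n = 4) for Id2 to 0.353 ± 0.426 RPKM for Tox2 in WT and from 150.1 ± 38.6 to 0.391 ± 0.216 RPKM in Sirt2-/- mice. The neighbors Eomes and Bhlhe40, Tbx21 and Tox, and Irf4 and Prdm1 overlapped in both genotypes, and Zeb2 and Tox2 in WT, whereas Id2 stood above Eomes and Bhlhe40 above Tbx21 in every library.

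In CD4+ WT TILs the order was Bhlhe40, Id2, Rora, Irf4, Prdm1, Tbx21, Tox, Eomes, Tox2 and Zeb2, from 55.2 ± 13.8 to 0.866 ± 0.153 RPKM. There the step from Id2 to Rora and that from Tox2 to Zeb2 were free of overlap, and the other neighbors overlapped. In CPM, which is not divided by length, Zeb2 (mean 17.3) was above Tox2 (8.30) there. In CD4+ Sirt2-/- TILs Id2 led (54.6 ± 13.1 RPKM) and Zeb2 was last (0.922 ± 0.449 RPKM). The place of Tbx21 there, after Id2 and Bhlhe40, rested on CD4+ replicate 4, with a mean of 15.7 RPKM with that library and 8.60 without it. With the 3 sparse libraries (under 15000 genes detected) left out, the first and last means were 62.1 RPKM (Bhlhe40) and 0.837 RPKM (Zeb2) in CD4+ WT, 57.5 RPKM (Id2) and 1.06 RPKM (Zeb2) in CD4+ Sirt2-/- and 136 RPKM (Id2) and 0.397 RPKM (Tox2) in CD8+ WT TILs.

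Genes of the same families and programs were compared in the same way. Lists of related genes are described by counts and medians beside all genes, whose median log2 fold change of CD8+ over CD4+ TILs was -0.02 in WT and 0.16 in Sirt2-/- mice (members -0.07 and 0.29). Of 12 paralogs of the members tested in WT, none was called higher and 3 were lower in CD8+ TILs. These were Irf5 (-2.21 ± 0.48, adjusted p = 0.0123), Zeb1 (-0.86 ± 0.19, adjusted p = 0.0131), the counterpart of Zeb2 in memory cells, and Irf2 (-0.46 ± 0.13, adjusted p = 0.0369). In Sirt2-/- mice 2 of 13 were called, Zeb1 again lower (-1.17 ± 0.24, adjusted p = 0.0493) and Irf8, a partner of IRF family complexes, higher (1.40 ± 0.19, adjusted p = 0.00802), the latter named after its value was seen.

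Of 31 other transcription factors of effector, memory and helper cells, 3 were higher and 11 lower in CD8+ TILs of WT mice, with a median of -0.45, and 1 higher and 8 lower in Sirt2-/- mice. Those higher in WT were Zbtb32 (3.33 ± 0.53, adjusted p = 0.00209), Runx3 (0.92 ± 0.12, adjusted p = 0.000710), which sustains the CD8+ lineage, and Ikzf3 (0.47 ± 0.12, adjusted p = 0.0225). The largest differences in the other direction were those of Foxp3 (-7.97 ± 0.47, adjusted p = 4.15e-06), the factor of regulatory T (Treg) cells, Maf (-6.57 ± 0.30, adjusted p = 7.37e-07) and Zbtb7b (-3.46 ± 0.52, adjusted p = 0.00165), the factor of the CD4+ lineage.

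The effector genes include the usual targets of T-bet and eomesodermin. Of 20 tested in WT, 8 were called higher and 3 lower in CD8+ TILs, with a median log2 fold change of 1.43, and in Sirt2-/- mice 3 higher and 1 lower. In WT the perforin gene Prf1 was higher by 3.71 ± 0.85 (adjusted p = 0.0157), the granule gene Nkg7 by 2.57 ± 0.19 (adjusted p = 2.20e-05) and the interferon gene Ifng by 1.78 ± 0.47 (adjusted p = 0.0326). Klrg1, a receptor of terminal effector cells, was lower (-2.42 ± 0.59, adjusted p = 0.0220), as were Cxcr3 (-1.16 ± 0.14, adjusted p = 0.000441) and Il18r1 (-0.96 ± 0.19, adjusted p = 0.00800).

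Of 12 genes of exhaustion tested in WT, 1 was higher and 6 were lower in CD8+ TILs (median -0.77), and in Sirt2-/- mice none was higher and 3 were lower. Havcr2, the gene of TIM-3, was higher in WT (0.90 ± 0.19, adjusted p = 0.00939). Ctla4 (-4.69 ± 0.25, adjusted p = 1.97e-06), Tnfrsf18 (-2.34 ± 0.13, adjusted p = 2.32e-06) and Tnfrsf9 (-1.88 ± 0.20, adjusted p = 0.000194), receptors that Treg cells also carry, were lower. Of 11 genes of naive and memory cells, 1 was higher and 4 were lower in WT, and none higher and 1 lower in Sirt2-/- mice.

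Markers of Treg cells moved with this comparison. Their 7 genes, Foxp3 and Ctla4 among them, summed to 1800 to 3048 CPM in CD4+ WT, 1351 to 2803 in CD4+ Sirt2-/-, 127 to 238 in CD8+ WT and 159 to 344 CPM in CD8+ Sirt2-/- libraries. All 7 were lower in CD8+ TILs of WT mice and 6 of 7 in Sirt2-/- mice, and none was at 0 throughout a group. The 6 genes of natural killer cells, which also express Eomes, Tbx21 and Id2, summed to 29.3 to 39.1 CPM in CD8+ WT and 18.3 to 48.3 in CD8+ Sirt2-/- libraries, against at most 9.09 in CD4+ WT and 19.1 in CD4+ Sirt2-/- libraries. Ncr1, their defining receptor, stayed at or below 2.25 CPM in all CD8+ and 3.27 CPM in all CD4+ libraries, and Klra4 was at 0 in all CD4+ WT libraries. Of 5 natural killer genes tested in WT, 4 had values above 0. One of these was called higher in CD8+ TILs, Klre1 (4.38 ± 0.88, adjusted p = 0.00813). In Sirt2-/- mice none of the 4 tested was called. Of 8 stromal genes, 3 were tested in WT and 1 was called lower in CD8+ TILs, Pecam1 (-1.46 ± 0.16, adjusted p = 0.000235). Col1a1 had a log2 fold change of -2.79 ± 1.45 (adjusted p = 0.275) and Col1a2 one of 0.27 ± 1.65 (adjusted p = 0.952). Dcn and Pdgfra were at 0 CPM in all CD4+ WT libraries. The 8 stromal genes summed to 95.02 to 115.99 CPM in CD4+ WT and to 36.21 to 48.34 CPM in CD8+ WT libraries, without overlap. In Sirt2-/- mice these sums overlapped, at 64.48 to 182.18 CPM in CD4+ and 40.55 to 109.70 CPM in CD8+ libraries. The 8 melanoma genes summed to 11.8 to 128 CPM in CD4+ WT, with the highest sum in replicate 1, and to 6.48 to 14.4 CPM in CD8+ WT libraries. All 5 of them that were tested in WT had values below 0, and 1 was called, Gpnmb (-2.57 ± 0.51, adjusted p = 0.00715). In Sirt2-/- mice no stromal or melanoma gene was called. What part any of these lists had in the members' differences was not tested.

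No member passed the test between Sirt2-/- and WT TILs of either cell type. In CD4+ TILs 0 of the 10 members and 0 of 15070 genes (0%) were called, with 190 genes and 0 members at an unadjusted p under 0.05 (edgeR). DESeq2 called 7 genes and limma-voom 4, and no member in either. In CD8+ TILs 0 members and 1 gene, Sirt2, were called (0.00654% of 15302 genes), with 579 genes and 1 member, Irf4, at an unadjusted p under 0.05. DESeq2 called 28 genes and limma-voom 5, again no member. The 4 libraries of one genotype were above all 4 of the other for 0 members in CD4+ TILs (3.13% of all genes) and 0 in CD8+ TILs (2.95%).

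In CD4+ TILs Sirt2 itself, at a log2 fold change of -2.60 ± 1.26, missed the threshold (adjusted p = 0.9999) and passed it without the libraries with few genes detected (-1.95, adjusted p = 0.00163). A difference of that size could thus go uncalled for a gene as variable between these 8 libraries as Sirt2. Without CD4+ Sirt2-/- replicate 4 alone, Sirt2 was at -2.18 ± 0.26 and also not called (adjusted p = 0.141). With all 8 libraries the SE of the members ran from 0.23 (Id2) to 1.34 (Tox2). Without the libraries with under 15000 genes detected no member was called in CD4+ or CD8+ TILs.

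In CD8+ TILs 9 of 10 members had a log2 fold change of Sirt2-/- over WT above 0, with a median of 0.13 against 0.01 over all genes. Without CD8+ WT replicate 1, Tbx21 (-0.093), Tox2 (-0.017) and Rora (-0.0053) also fell below 0, beside Bhlhe40 (-0.034). Irf4 had 41.3, 33.1, 35.7 and 43.1 CPM in Sirt2-/- and 17.5, 32.8, 28.1 and 33.7 CPM in WT libraries, a log2 fold change of 0.45 ± 0.19 (95% interval 0.02 to 0.88) with an adjusted p of 0.986. Its lowest WT value is that of the library with 14411 genes detected, and without it the log2 fold change was 0.29. Zeb2 had the widest shift, 0.52 ± 0.24 (-0.02 to 1.06), with Sirt2-/- replicates 3 and 4 above all WT libraries and the other 2 among them, and 0.39 without the same library.

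The remaining members of CD8+ TILs lay closer to 0. The log2 fold change was 0.22 ± 0.20 for Eomes (95% interval -0.22 to 0.66) and 0.22 ± 0.16 for Id2 (-0.14 to 0.58). It was 0.11 ± 0.20 for Prdm1 (-0.34 to 0.55), 0.10 ± 0.21 for Tbx21 (-0.36 to 0.55), 0.02 ± 0.23 for Tox (-0.48 to 0.52), 0.02 ± 0.17 for Rora (-0.35 to 0.40) and -0.02 ± 0.12 for Bhlhe40 (-0.28 to 0.25). For Tox2 it was 0.15 ± 0.83, with a far wider interval (-1.68 to 1.98). Without the WT library with 14411 genes detected, these 8 members lay between -0.093 (Tbx21) and 0.19 (Eomes). The summed CPM of 12 myeloid genes, 9.97 to 42.7 in Sirt2-/- and 2.24 to 9.76 in WT libraries, did not overlap between the genotypes in CD8+ TILs. None of the 12 was at 0 throughout a group. All 9 that were tested had a log2 fold change above 0, with a median of 2.36. Of these, 4 had an unadjusted p under 0.05 (edgeR) and none was called. Their part in the members' values was not tested.

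In CD4+ TILs 6 of 10 members had a log2 fold change above 0, with a median of 0.05 against -0.11 over all genes. Tbx21 stood at 0.43 ± 0.56 (95% interval -0.81 to 1.67) with all libraries and at -0.37 without the libraries with few genes detected, so that its sign rested on CD4+ Sirt2-/- replicate 4. Tox was at -0.34 ± 0.30 (-1.01 to 0.33), Bhlhe40 at -0.19 ± 0.25 (-0.74 to 0.37) and Irf4 at 0.16 ± 0.25 (-0.39 to 0.71). Id2 was at 0.07 ± 0.23 (-0.43 to 0.58), Prdm1 at 0.02 ± 0.31 (-0.67 to 0.70) and Rora at -0.03 ± 0.24 (-0.57 to 0.51). Eomes (0.19 ± 0.63), Zeb2 (0.10 ± 0.66) and Tox2 (-0.69 ± 1.34) had wider ones, reaching from -1.22 to 1.59, from -1.37 to 1.57 and from -3.66 to 2.29. Without the libraries with under 15000 genes detected, the values were -0.34 for Tox2, -0.34 for Bhlhe40, 0.34 for Zeb2, -0.27 for Prdm1, 0.26 for Eomes, -0.11 for Tox, -0.094 for Irf4, -0.067 for Rora and 0.043 for Id2. The Sirt2-/- mean of Tox2 was 5.11 CPM with and 6.80 CPM without replicate 4, which held 1 count. CD4+ Sirt2-/- replicate 1 stood apart in its marker sums. Its naive and memory genes summed to 4106 CPM, against 1914 to 2530 in the others of its group. Its exhaustion genes summed to 903 CPM, against 1963 to 2406, and its Treg genes to 1351 CPM, against 2451 to 2803. The part of this library in the members' values was not tested.

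**Figure D4:**
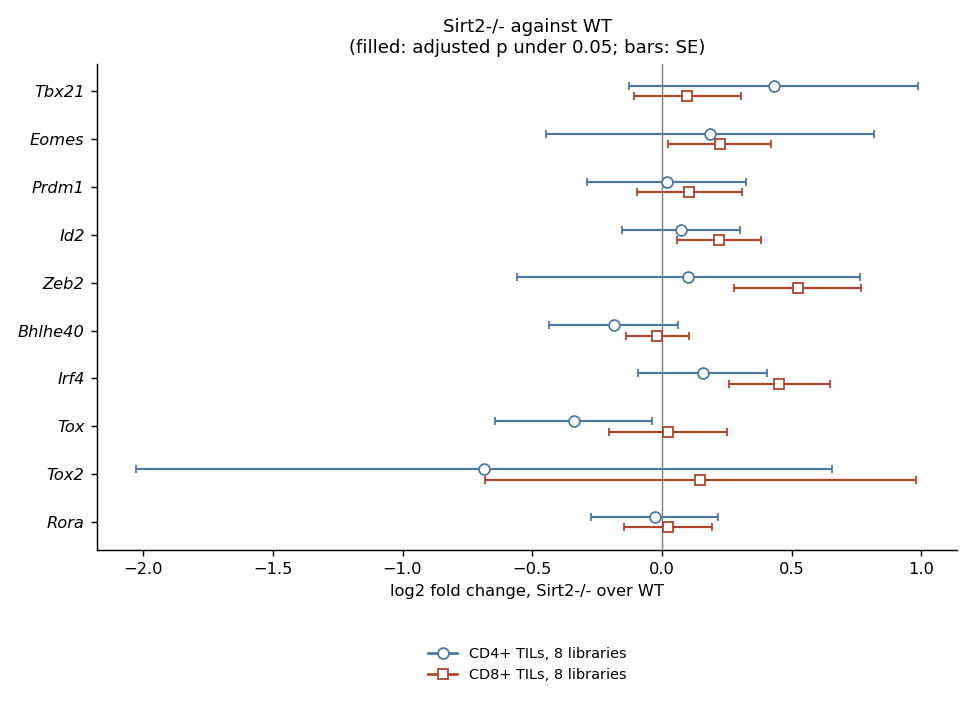
Log2 fold change of Sirt2-/- over WT (x axis) for each of the 10 transcription factors, with SE as bars, in CD4+ TILs (circles) and CD8+ TILs (squares). No symbol is filled, as no adjusted p was under 0.05, and the farthest from 0 are Tox2 in CD4+ (-0.69, and -0.34 without the libraries with under 15000 genes detected) and Zeb2 in CD8+ TILs (0.52).

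Tested over all 16 libraries, the effect of SIRT2 loss did not differ between CD8+ and CD4+ TILs past the threshold for any member or for any of 17270 genes (0%). There 342 genes and 0 members had an unadjusted p under 0.05, and DESeq2 called 2 genes and no member. The difference (effect in CD8+ minus effect in CD4+ TILs, log2) was smallest in size for Eomes, at 0.04 (95% interval -0.96 to 1.04), and for Rora, at 0.05 (-0.60 to 0.71). For Zeb2 it was 0.43 (-0.86 to 1.72), for Tox 0.38 (-0.46 to 1.21) and for Tbx21 -0.34 (-1.62 to 0.94). Once the 3 sparse libraries were left out these were -0.073 for Eomes, 0.062 for Rora, 0.051 for Zeb2, 0.21 for Tox and 0.28 for Tbx21. In the lists of paralogs, other factors, effector, exhaustion and naive or memory genes, no gene was called between the genotypes in either cell type.

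How the members varied with each other was described over the 13 libraries with at least 15000 genes detected, on log2(CPM + 1). They include both cell types and both genotypes, so a correlation across them holds the contrast of CD8+ and CD4+ TILs. Eomes went with Id2 (Pearson's r = 0.93) and Tbx21 (0.92) and against Rora (-0.93), and with the group means taken out these values were 0.21, 0.33 and 0.23. On that second scale Id2 and Prdm1, which differ in opposite directions between the cell types, went together among libraries of a group (r = 0.97). So did other pairs, among them Tbx21 and Zeb2 (0.85), Prdm1 and Zeb2 (0.85), Id2 and Bhlhe40 (0.83) and Id2 and Zeb2 (0.83). Irf4 and Tox (-0.42) and Eomes and Bhlhe40 (-0.22) had values below 0. CD8+ Sirt2-/- replicate 3 was the highest of its group for Tbx21, Prdm1, Id2, Zeb2, Bhlhe40 and Tox. CD4+ Sirt2-/- replicate 1 was the lowest of its group's libraries used here for the same members and for Irf4 and Rora. The part of these libraries in the correlations was not tested.

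Among 9699 genes with a mean of at least 5 CPM, those most like each member over the same 13 libraries were the following. Psat1 (r = 0.99) was closest to Tbx21, Rmi2 (0.98) to Eomes, Arid3a (0.99) to Prdm1, Tipin (0.99) to Id2 and Zfp467 (0.99) to Rora. Grik5 (0.97) was closest to Irf4. Csf1 (0.91) was closest to Zeb2 and Diaph1 (0.92) to Bhlhe40. Lrrfip1 (0.92), Rdx (0.92) and Havcr2 (0.91), the last an exhaustion receptor gene, were closest to Tox. Tox2 was below the level required.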

How the data were processed

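Total RNA of CD4+ and CD8+ TILs was sequenced by the authors with a stranded, rRNA-depleted kit. The deposited values are raw counts, 1 whole number per gene and library, which the authors had not normalized. The submitters' processing notes name STAR, HTSeq and mm10, without versions. All 55450 identifiers are those of GENCODE mouse release M21 (GRCm38), which gave positions and exon lengths. Counting on strand is not stated. The depth ranged from 28000949 to 62407851 counts per library. As no molecular identifiers were used in counting, a count is a read and not a molecule.

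Libraries were grouped by the cell type and genotype of their labels. Counts were tested in R 4.3.3 with edgeR 4.0.16 (TMM, filterByExpr on the groups, robust quasi-likelihood fit, two-sided), with Benjamini-Hochberg adjustment over all genes tested and a threshold of 0.05. The 4 comparisons used the 8 libraries of their groups and the interaction all 16. SE is the log2 fold change over the square root of F, and 95% intervals use the t distribution of the fit. CPM used TMM factors over all 16 libraries, and RPKM is that per kilobase of all annotated exons of a gene merged. The functions were tested on simulated data. No library was left out of the main values, no file column was left unused, and no 2 libraries held the same counts.

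The members and gene lists were chosen with earlier results of these data known. All 10 members are named, and of the lists at most 3 called genes per direction in WT by size. Alternatives were DESeq2 1.42.0, limma-voom (limma 3.58.1) with quality weights, the size factors of DESeq2, no filter on low counts, 1 model over all 16 libraries, a block on the replicate number, leaving out the 3 libraries with under 15000 genes detected, and leaving out each library in turn. Promoter windows are those of RefSeq (GRCm38.p6), 250 bases before the start.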

Additional observations from a re-analysis of the deposited data

Results flagged for a closer look

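In 6 of the 40 sets of 4 values (10 transcription factors in 4 groups), 1 library stood apart from the other 3 by Dixon's ratio, where chance gives about 2.0 of 40. Eomes was at 403.8 CPM in CD8+ Sirt2-/- replicate 4, against 209 to 232 CPM in the other 3 libraries. Zeb2 was at 12.75 CPM in CD4+ WT replicate 3, against 18.1 to 19.2 CPM. Bhlhe40 was at 163.3 CPM in CD4+ WT replicate 1, a library with 12587 genes detected, against 283 to 297 CPM. In CD8+ Sirt2-/- replicate 3, Bhlhe40 was at 279.6 CPM against 198 to 210.2 CPM, and Tox was at 186.9 CPM against 89.3 to 94.2 CPM. Tox2 was at 3.358 CPM in CD8+ WT replicate 2, against 0.339 to 0.756 CPM.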

How the results depend on the processing

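Over all alternatives run, Eomes and Rora were called between CD8+ and CD4+ TILs in both genotypes, and Id2, Prdm1 and Irf4 in WT. No member was called between genotypes, and none in the interaction. For the members' fold changes between cell types, 131 of the values under an alternative kept direction and side of the threshold in WT and 122 in Sirt2-/- mice, while 8 and 14 lost and 10 and 11 gained the call. The cause was not tested. Tox2 had the lowest counts of the members, at 1 to 623 per library. The 1 count was in CD4+ Sirt2-/- replicate 4, which had the highest total (62407851) but only 8169 genes detected.

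Genes called between cell types in WT numbered 1765, against 2651 with DESeq2, 5504 with limma-voom, 811 with all 16 libraries in 1 model, 4394 once the sparse libraries (under 15000 genes detected) were left out, and 1022 (without CD8+ replicate 4) to 2767 (without CD4+ replicate 1) without 1 library. In Sirt2-/- mice they numbered 354, against 1339, 4481, 781, 4250 and 111 (without CD8+ replicate 3) to 4250 (without CD4+ replicate 4). There 4 members were called, 7 with limma-voom, 7 without CD4+ replicate 4, and 2 to 7 without 1 library. Between genotypes in CD4+ TILs 0 genes were called, 7 with DESeq2, 4 with limma-voom and 6 once the 2 sparse libraries were left out. In CD8+ TILs 1 gene was called, 28 with DESeq2, 5 with limma-voom, 5 without the filter, 7 once the sparse library was left out and 0 to 7 without 1 library. The interaction had 0 genes, and 2 with DESeq2.

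With the replicate number as a block, genes called numbered 108 between cell types in Sirt2-/- mice and 4 between genotypes in CD8+ TILs. In WT the block took the call from Tbx21 (adjusted p = 0.0700) and gave one to Tox2 (0.0286), and in Sirt2-/- mice it took that of Irf4 (0.135). Same-numbered libraries deviated from their group means with correlations of 0.074 to 0.147 between cell types in WT, 0.019 to 0.255 in Sirt2-/- mice and -0.072 to 0.063 between genotypes. All 4 CD8+ libraries in WT and 3 of 4 in Sirt2-/- mice correlated best with the CD4+ library of their own number, a hint from the data only. As the labels name no shared animal and not every correlation was over 0.1, the block was kept as an alternative. Signs that turned under the block were those of Zeb2 in CD4+ (-0.027) and Tox in CD8+ TILs (-0.041) between genotypes, and of Tbx21 (0.10) and Prdm1 (-0.0053) in the interaction.

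Other signs turned where no call was made. With limma-voom these were, in CD4+ TILs, Tbx21 (-0.24), Eomes (-0.037), Prdm1 (-0.21) and Rora (0.015), in CD8+ TILs Tbx21 (-0.11), Tox (-0.0074) and Rora (-0.021), and in the interaction Tbx21 (0.14), Zeb2 (-0.12) and Rora (-0.0052). Once the sparse libraries were left out they were, in CD4+ TILs, Tbx21 (-0.37), Prdm1 (-0.27) and Irf4 (-0.094), in CD8+ TILs Tbx21 (-0.093), Tox2 (-0.017) and Rora (-0.0053), and in the interaction Tbx21 (0.28) and Eomes (-0.073). Leaving out 1 library, the log2 fold change ran from -0.0048 to 0.32 for Zeb2 between cell types in WT and from -0.21 to 0.071 for Bhlhe40 in Sirt2-/- mice. Between genotypes in CD4+ TILs it ran from -0.41 to 0.71 for Tbx21, -0.20 to 0.56 for Eomes, -0.19 to 0.19 for Prdm1, -0.054 to 0.18 for Id2, -0.17 to 0.31 for Zeb2 and -0.16 to 0.13 for Rora. In CD8+ TILs it ran from -0.093 to 0.20 for Tbx21, -0.064 to 0.33 for Eomes, -0.13 to 0.23 for Prdm1, -0.13 to 0.043 for Bhlhe40, -0.29 to 0.14 for Tox, -0.27 to 1.47 for Tox2 and -0.10 to 0.17 for Rora. The interaction ran from -0.62 to 0.50 for Tbx21, -0.33 to 0.43 for Eomes, -0.16 to 0.31 for Prdm1, -0.035 to 0.28 for Id2 and -0.11 to 0.20 for Rora.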
